A study of Mus musculus with 5 samples.

Results

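The ATF4 amino acid response genes described here are Atf3, Atf4, Atf5, Asns, Trib3, Ddit3, Chac1, Psat1 and Phgdh. Their members were found as every probe set on the array whose single gene symbol in the platform annotation is one of these names. That gave 18 probe sets for the 9 genes, of 34945 probe sets with 1 gene symbol and 45101 in all. The study measured total RNA on 5 Affymetrix mouse arrays, and asked what differs in the medial ganglionic eminence (MGE) without the homeodomain factors Dlx1 and Dlx2. The MGE is the ventral forebrain region that produces many cortical interneurons, and its ventricular and subventricular zones hold dividing progenitors and newborn neurons. All groups came from the rostral MGE of embryos at E15.5, embryonic age in days. They were dissected tissue from wild type (WT) embryos (1 array), dissected tissue from Dlx1/2 mutant embryos (2 arrays), primary neuronal cultures of the same zones from WT embryos (1 array) and the same cultures from Dlx1/2 mutant embryos (1 array). The titles mark mutants as -/-, give only +/ for the WT tissue array and no genotype for the WT culture. That both are WT comes from the sample descriptions. Strain, number of embryos per array, days in culture and culture medium are not given in the labels, which do not say whether separate embryos lie behind the pair of mutant tissue arrays. The spread of that pair may therefore be technical, and the p-values here rest on it in whole or in part.

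Cells that run short of an amino acid, or that meet stress in the endoplasmic reticulum, phosphorylate the translation factor eIF2. General translation then slows, while translation of the mRNA for the transcription factor ATF4 increases. ATF4 raises genes that make, import and use amino acids, and under prolonged stress also genes such as Ddit3 (CHOP) and Trib3 that limit the response or favour cell death. The arrays measure mRNA, so neither eIF2 phosphorylation nor ATF4 protein was observed. Phgdh and Psat1 are also known as genes of serine synthesis in radial glia and astrocytes.

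ATF4 binds, with a C/EBP partner, composite elements whose core reads TGATGNAA. This core was searched on both strands of the promoters in RefSeq (build GRCm38.p6), each taken as 250 bases before to 50 after a transcript start, 300 bases in all. It was present in 1304 of 32851 promoters, or 3.97%, and in 4 of the 11 promoters of the 9 members. The promoters of Asns, Chac1 and Atf3 hold it before the start, and their 250 upstream bases are shown. For Trib3 it lies 15 bases after the start, and 30 bases are shown. Capitals mark the match, which reads TTGCATCA or TTACATCA where the core lies on the opposite strand.
Asns (GRCm38.p6, chr6:7693210-7693459, minus strand): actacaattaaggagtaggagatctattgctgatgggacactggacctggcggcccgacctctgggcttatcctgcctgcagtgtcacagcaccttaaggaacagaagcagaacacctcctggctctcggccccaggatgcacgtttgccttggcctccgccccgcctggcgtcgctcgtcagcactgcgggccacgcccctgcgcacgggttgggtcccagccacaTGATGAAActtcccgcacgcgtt
Chac1 (GRCm38.p6, chr2:119350992-119351241, plus strand): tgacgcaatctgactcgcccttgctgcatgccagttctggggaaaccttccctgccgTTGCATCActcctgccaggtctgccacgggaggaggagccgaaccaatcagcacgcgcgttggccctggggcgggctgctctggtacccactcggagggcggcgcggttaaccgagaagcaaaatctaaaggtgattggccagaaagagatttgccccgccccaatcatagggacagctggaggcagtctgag
Atf3 (GRCm38.p6, chr1:191183334-191183583, minus strand): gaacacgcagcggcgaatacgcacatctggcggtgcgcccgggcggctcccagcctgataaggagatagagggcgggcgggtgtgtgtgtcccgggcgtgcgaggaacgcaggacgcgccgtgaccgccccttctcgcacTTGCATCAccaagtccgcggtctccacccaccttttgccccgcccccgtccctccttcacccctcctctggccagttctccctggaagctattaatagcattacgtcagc
Trib3 (GRCm38.p6, chr2:152344028-152344057, minus strand): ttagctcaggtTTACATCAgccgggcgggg
The match lies 23 bases before the start in Asns, 193 in Chac1 and 110 in Atf3. These are letters in a window, not measured binding sites, and the windows of the other members hold no such letters. A second sequence that was searched, TGACGTCA, was in 588 of 32851 promoters (1.79%) and in 0 of the 11 member promoters.

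Atf4, Atf5, Chac1, Asns, Psat1 and Phgdh rose in culture relative to tissue, and Asns rose most; Ddit3 did not pass, and Atf3 and Trib3 were too dim to test. Differences below are on the log2 scale after quantile normalization, as culture minus tissue or mutant minus WT, with the standard error (SE) of a limma fit. A gene is represented by its brightest probe set, and it was tested if its mean over the 5 arrays passed the median of all values (a signal of 27.8). That left 7 members among 11063 genes. Of the 7, 6 rose in culture (Benjamini-Hochberg adjusted p below 0.05) and 0 fell, where 19.6% of all genes tested rose and 19.2% fell. The members were chosen with earlier results of these data known, so these shares are a description only. In the same 6 members both culture arrays lay above all 3 tissue arrays, against 29.6% of all genes tested; none of the 7 had both below, against 29.2%.

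**Figure D1:**
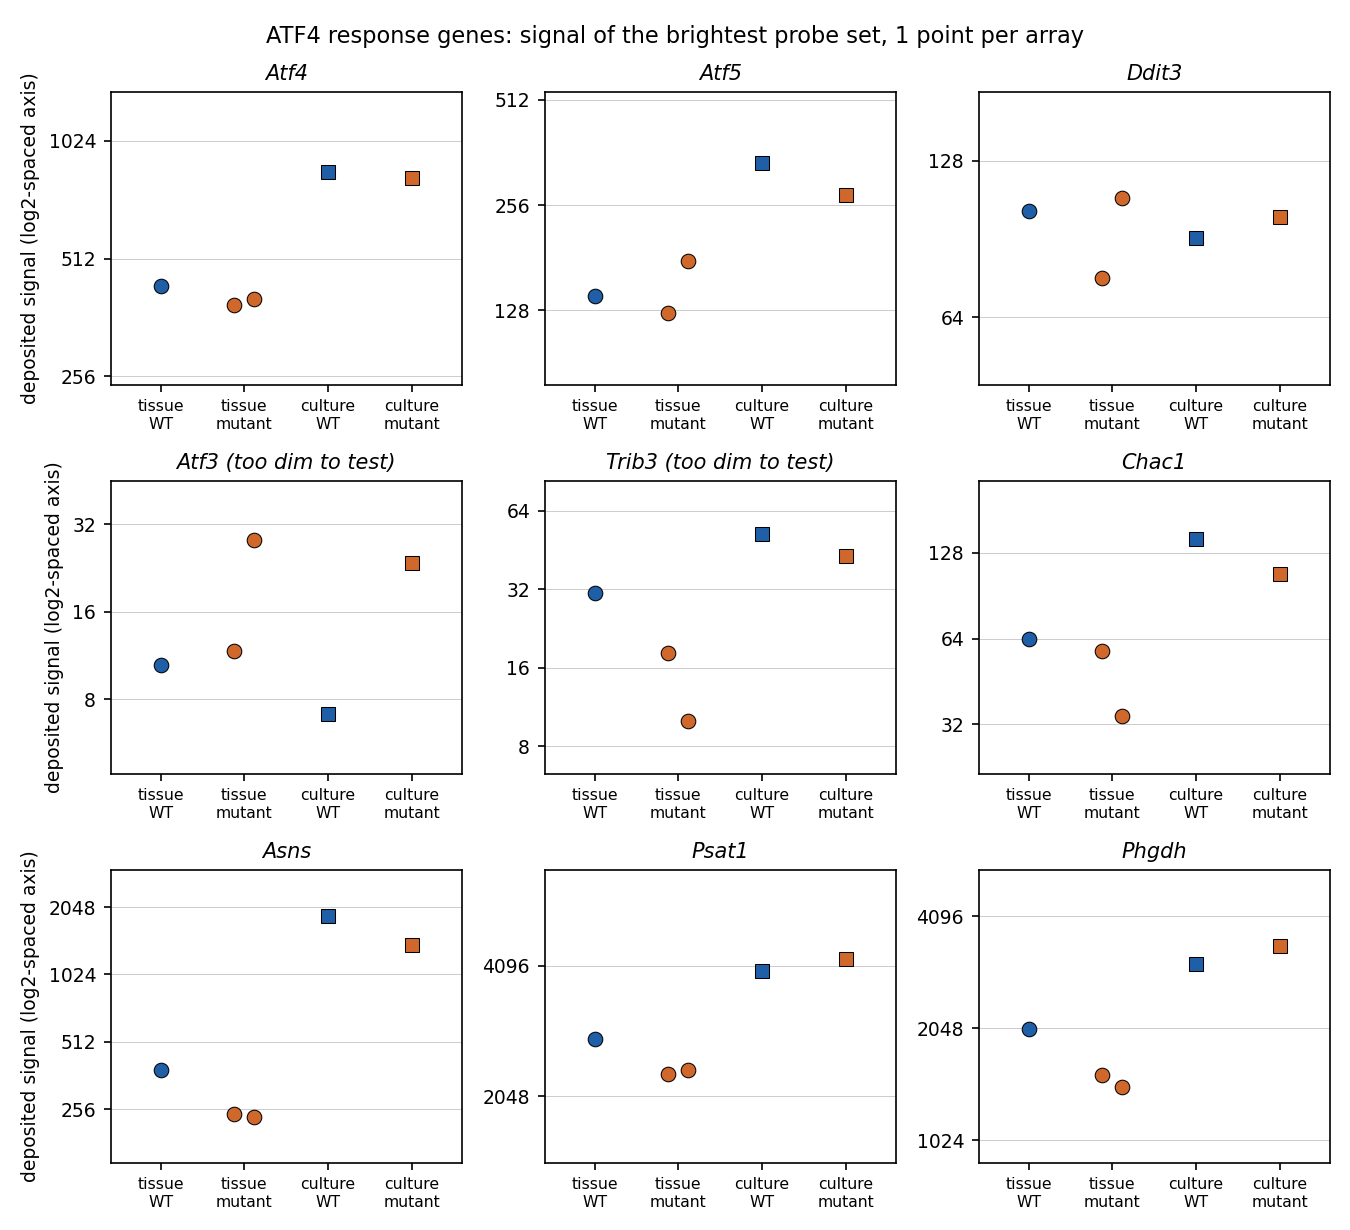
Deposited signal of the brightest probe set of each member in each of the 5 arrays, on log2-spaced axes (circles, tissue; squares, culture; blue, WT; orange, Dlx1/2 mutant; 2 circles for mutant tissue). Asns runs from 235 in mutant tissue to 1874 in WT culture, while the arrays of Ddit3 and Atf3 overlap between tissue and culture.

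Among the transcription factors, Atf4 itself had tissue signals of 435 (WT), 390 and 404 (mutants) and culture signals of 853 (WT) and 824 (mutant). Both culture arrays lay above all tissue arrays, with no overlap. The rise was 1.01 ± 0.11 (2.02-fold, limma adjusted p = 0.000385). A second Atf4 probe set rose by 1.36 ± 0.14, and the third lay at the floor set on low values (a signal of 5.15) in 4 of 5 arrays and carries no information.

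Atf5, a related factor that is also controlled through eIF2, had tissue signals of 141 (WT), 125 and 178 (mutants) and culture signals of 337 (WT) and 274 (mutant). Culture was again above tissue in every array. The rise was 1.09 ± 0.19 (2.12-fold, adjusted p = 0.0031).

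Ddit3, the gene of the stress factor CHOP, had tissue signals of 102 (WT), 76.0 and 108 (mutants) and culture signals of 90.9 (WT) and 99.8 (mutant). Both culture values lay inside the tissue range, and the difference was 0.08 ± 0.22 (adjusted p = 0.81). Its other, dimmer probe set gave 35.3 (WT), 14.8 and 11.1 (mutants) in tissue, and 3.83 and 4.88 in the WT and mutant cultures. The 2 probe sets of Ddit3 therefore differ, level in one and at the floor in culture in the other, and the second was below the intensity filter.

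Atf3, a stress-inducible factor of the same family, was close to background. Its tissue signals were 10.5 (WT), 11.7 and 28.1 (mutants), and its culture signals 7.11 (WT) and 23.5 (mutant). The culture values lay to both sides of the WT tissue value and overlapped the tissue range, so tissue and culture cannot be ordered.

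Trib3, a pseudokinase that dampens ATF4 activity, had tissue signals of 30.8 (WT), 18.3 and 10.02 (mutants) and culture signals of 52.1 (WT) and 43.1 (mutant). Both cultures lay above every tissue array, by 1.92-fold in WT and 3.24-fold in mutants, but the gene was too dim for the test used here. Its other probe set was above the floor in WT tissue (11.9) and WT culture (32.4) and at the floor in all 3 mutant arrays.

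Chac1, which degrades glutathione and is an ATF4 target, had tissue signals of 63.7 (WT), 58.0 and 34.3 (mutants) and culture signals of 143 (WT) and 108 (mutant). The order of groups was that of Trib3, with WT above mutant in each preparation. It rose in culture by 1.29 ± 0.28 (2.45-fold, adjusted p = 0.00796).

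Among the biosynthesis enzymes, Asns makes asparagine and is a classic ATF4 target. Its tissue signals were 382 (WT), 243 and 235 (mutants), and its culture signals 1874 (WT) and 1388 (mutant). Every culture array was several times every tissue array. The rise was 2.41 ± 0.12 (5.32-fold, adjusted p = 1.02e-05), larger than the preparation difference of 98.6% of genes tested and 52nd of 11063 by p. The second Asns probe set gave 6.43-fold in WT and 7.69-fold in mutants, the first 4.72-fold and 5.83-fold.

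Phgdh catalyses the first step of serine synthesis from a glycolytic intermediate, and Psat1 the next. Both were bright in tissue already. Psat1 had tissue signals of 2770 (WT), 2303 and 2355 (mutants) and culture signals of 3968 (WT) and 4248 (mutant), a rise in culture of 0.65 ± 0.08 (1.57-fold, adjusted p = 0.000813). Phgdh had tissue signals of 2042 (WT), 1530 and 1427 (mutants) and culture signals of 3051 (WT) and 3407 (mutant), a rise of 0.87 ± 0.13 (1.82-fold, adjusted p = 0.00138). In both genes all culture arrays were above all tissue arrays, and the step was larger in mutants than in WT. The 4 Phgdh probe sets rose by between 0.64 and 0.87, and both Psat1 probe sets rose by 0.65 and 0.68. All 4 Phgdh probe sets are of a type that can share sequence with other transcripts, and 2 more carry the names of a Phgdh-like gene model as well.

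**Figure D2:**
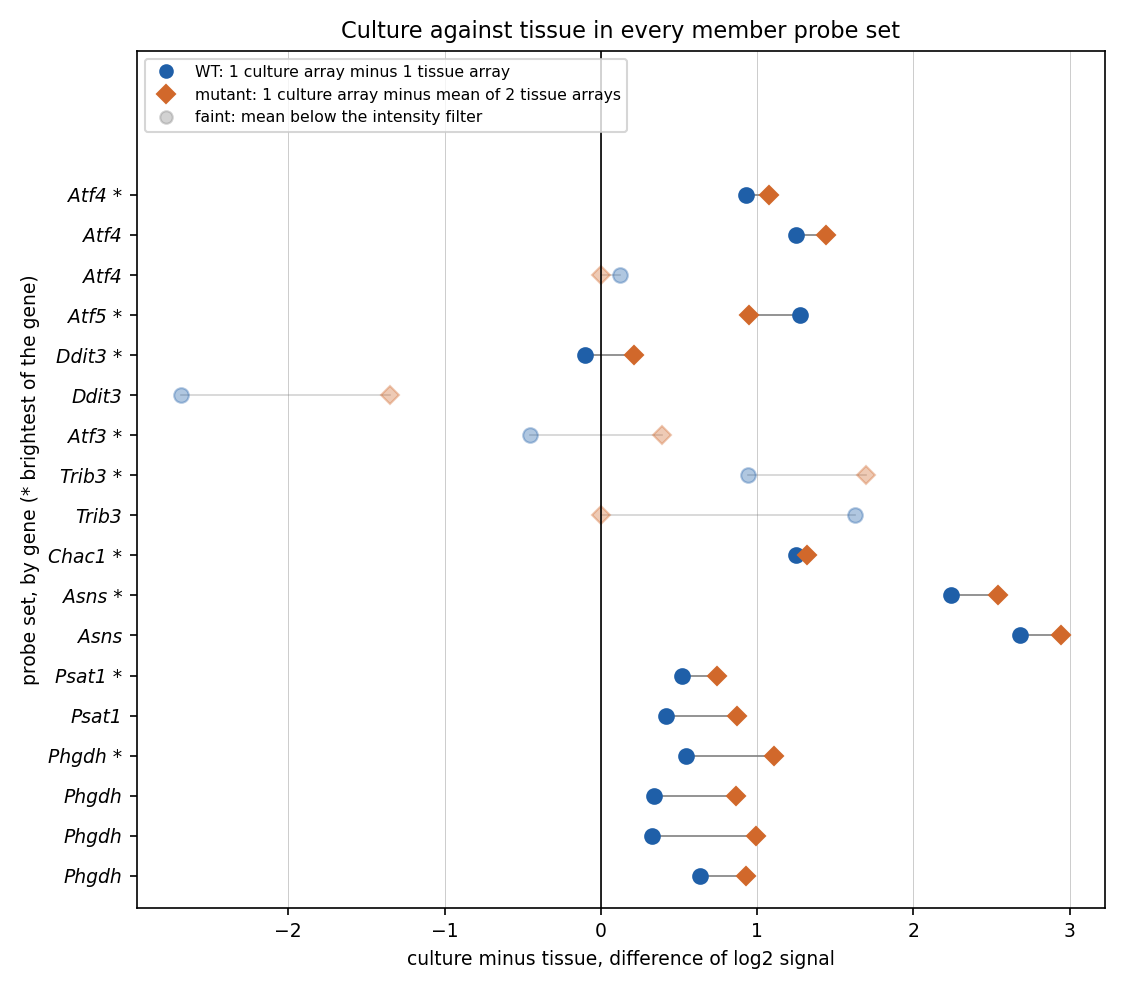
Culture minus tissue (log2 difference) for each of the 18 member probe sets, ordered by gene, in WT (blue circles, 1 array against 1) and mutants (orange diamonds, 1 culture array against the mean of 2 tissue arrays); faint symbols mark probe sets below the intensity filter and stars the brightest of each gene. The 2 Asns probe sets lie farthest right, from 2.24 to 2.94, and the dim Ddit3 probe set farthest left.

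Within each genotype, 3 of the 7 members tested were at least 2-fold higher in WT culture than in WT tissue (Atf5, Chac1 and Asns), where 9.73% of all genes were and 6.78% were at least 2-fold lower. In mutants 4 were (Atf4, Chac1, Asns and Phgdh), where 9.1% were and 6.57% were lower. None of the 7 was at least 2-fold lower in either genotype.

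Other cell types also differed between the preparations. The summed signal of 8 pericyte and mesenchyme markers was 827 to 901 in tissue and 14175 and 14627 in culture. Almost all of that was Acta2, smooth muscle actin, at 72.3 to 94.9 in tissue against 13627 and 14086 in culture. The collagen gene Col1a2 rose in culture (2.30, adjusted p = 0.000299), while the pericyte gene Rgs5 fell by 2.74 and Lum and Dcn stayed near background. Of the 8 markers, 5 were tested, of which 2 rose and 1 fell. Of 8 endothelial markers the sum was 941 to 1103 in tissue against 145 and 229 in culture, and 4 red blood cell genes summed to 8518 to 11634 against 14.4 and 9.76, with 3 and 4 of the 4 at the floor. Astrocyte markers were mixed: of 8 tested 3 rose, among them Gja1 and Aldh1l1, and 2 fell, while the defining marker Gfap stayed at or below 15.9 in every array. Of 12 neuronal markers tested 3 rose and 6 fell; Mapt rose by 1.05 and Nefm fell by 1.81. Of 10 MGE markers 2 rose and 6 fell, of which Lhx8 fell by 3.93. Of 5 oligodendrocyte lineage markers tested 3 fell, of which Olig2 fell by 2.31, and of 6 microglial markers 2 fell. Of 12 progenitor and radial glial markers tested 4 rose and 3 fell. Nes rose by 2.39, Slc1a3 by 1.72, Vim by 0.95 and Fabp7 by 0.42, whereas Hes5 fell by 4.21, Sox2 by 0.96 and Notch1 by 0.90. The rise of Nes was larger in WT, whose tissue signal lay far below the 96.2 and 108 of mutant tissue. Its culture signals were 141 (WT) and 226 (mutant). The part of these shifts in the member genes was not tested, and in bulk RNA fewer cells of a type cannot be told apart from less RNA per cell.

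**Figure D3:**
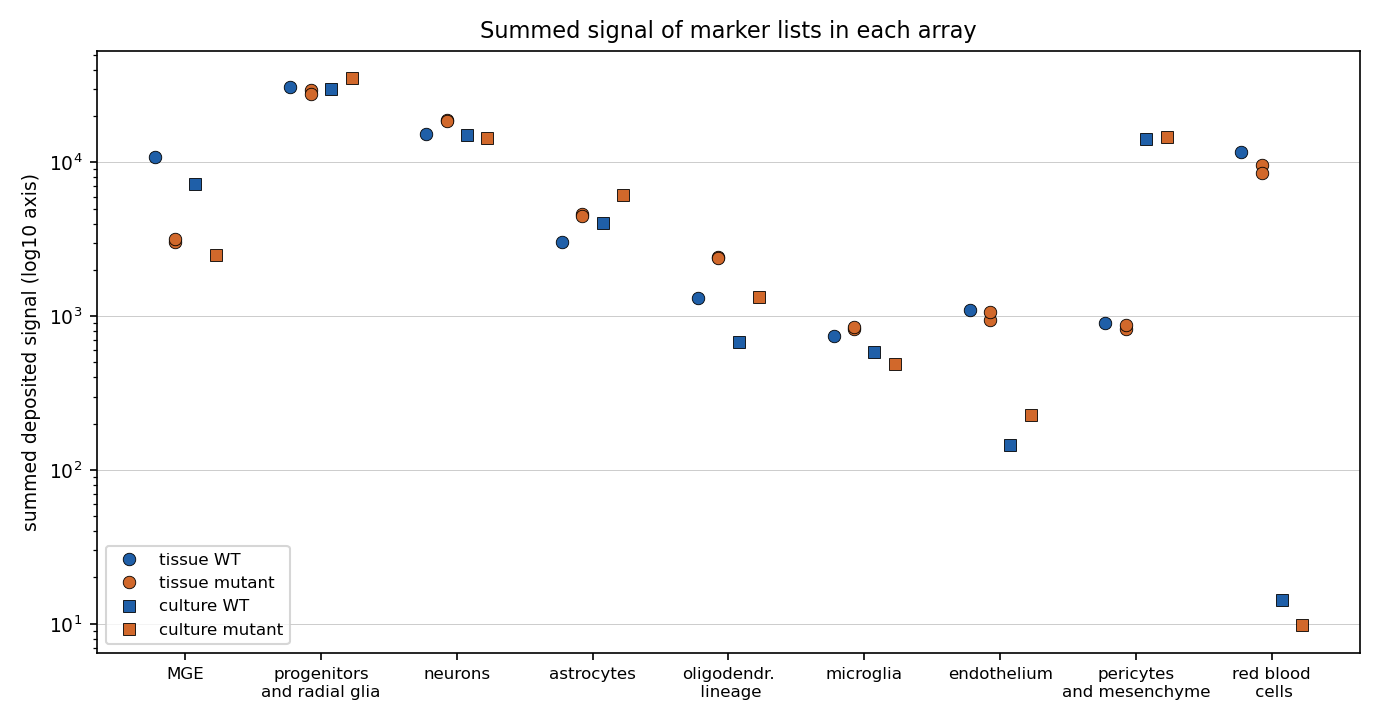
Summed deposited signal (log10 axis) of 9 marker lists in each array (circles, tissue; squares, culture; blue, WT; orange, mutant). Red blood cell and endothelial sums are lower in both cultures, and the pericyte and mesenchyme sum is higher in both, at 14175 and 14627.

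Across the 6 wider pathway lists, 20 of 78 genes tested rose in culture (25.6%) and 11 fell (14.1%), where 19.6% of all genes tested rose and 19.2% fell. Of the 20 rises, 10 came from the endoplasmic reticulum chaperone list, in which 1 of 17 genes tested fell. In each of the other lists as many genes fell as rose. All 6 lists were drawn up with earlier results of these data known. They are described by counts and medians beside the median over all genes tested, which was 0.00157. The 7 members tested were spread between 0.08 and 2.41.

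**Figure D4:**
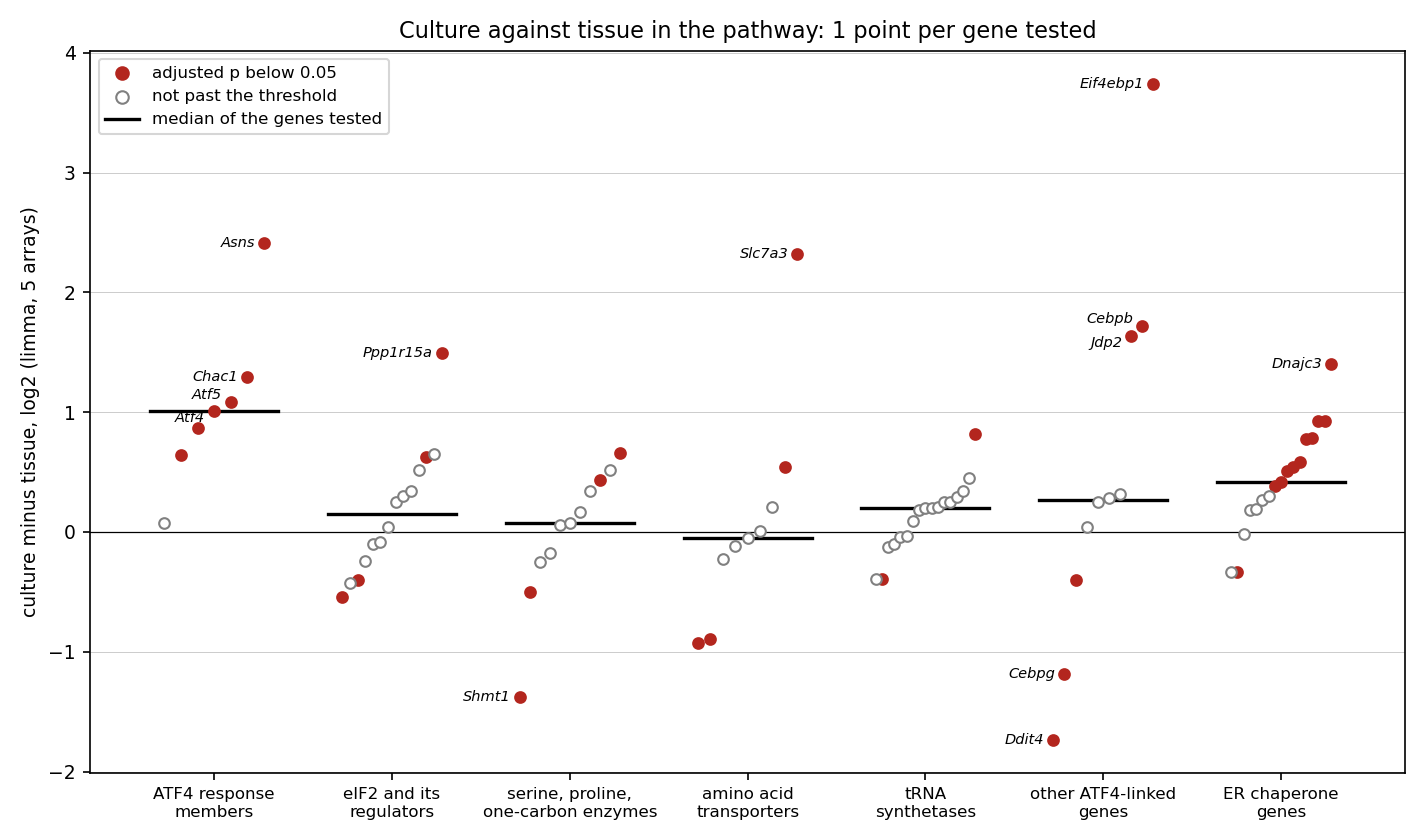
Culture minus tissue (log2, limma over 5 arrays) for each gene tested, by list; red points passed the threshold, open points did not, and bars mark the median of each list. Eif4ebp1 (3.74), Asns (2.41) and Slc7a3 (2.32) lie highest, and Ddit4 and Shmt1 lowest.

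Of 10 other genes linked to ATF4 that were tested, 3 rose and 3 fell (median 0.27). Eif4ebp1, an inhibitor of cap-dependent translation, had tissue signals of 254 (WT), 116 and 127 (mutants) and culture signals of 2327 (WT) and 2217 (mutant). It rose by 3.74 ± 0.22 (13.4-fold, adjusted p = 2.46e-05), and no culture value came near the tissue values. Cebpb, a C/EBP factor, rose by 1.72 ± 0.36 and Jdp2, an AP-1 repressor, by 1.64 ± 0.25. Cebpb had tissue signals of 25.1 (WT), 19.99 and 34.9 (mutants) and culture signals of 62.1 (WT) and 94.6 (mutant). Of its tissue signals only 34.9 lay above the filter value of 27.8, so it was tested largely because its culture signals were high. Its place among the 3 rises therefore carries little weight. In the other direction, Ddit4, an inhibitor of mTORC1, fell by 1.74 ± 0.12 (adjusted p = 4.12e-05), with 1205 to 1835 in tissue and 408 and 479 in culture. Cebpg, the C/EBP partner of ATF4, fell by 1.19 ± 0.16, and Atf2 by 0.40.

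Of 9 amino acid transporters tested, 2 rose, 2 fell and 5 did not pass (median −0.05). The cationic amino acid transporter gene Slc7a3 had tissue signals of 24.5 (WT), 43.3 and 34.1 (mutants) and culture signals of 174 (WT) and 131 (mutant), and rose by 2.32 ± 0.32 (5.01-fold, adjusted p = 0.00105). Slc1a4 rose by 0.54. Slc7a1, a paralog of Slc7a3, fell by 0.92 ± 0.12, and the neutral amino acid transporter gene Slc38a2 fell by 0.90 ± 0.08 (adjusted p = 0.000135) although it is a known amino acid response gene.

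Enzymes of serine, glycine, proline and one-carbon metabolism showed 2 higher, 2 lower and 7 not past the threshold of 11 (median 0.07). The mitochondrial folate enzymes Mthfd2 and Shmt2 rose by 0.66 and 0.43. The cytosolic serine hydroxymethyltransferase Shmt1 fell by 1.38 ± 0.26, and Aldh18a1, of proline synthesis, by 0.50. Of 17 aminoacyl-tRNA synthetases tested 1 rose, Aars by 0.82 ± 0.13 (adjusted p = 0.00185), 1 fell, Sars by 0.39, and 15 did not pass (median 0.20).

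Upstream, 14 genes of eIF2, its kinases, its exchange factor eIF2B and its phosphatase were tested. Ppp1r15a (GADD34), the inducible eIF2 phosphatase subunit, rose by 1.50 ± 0.25 (2.82-fold, adjusted p = 0.00267), and Eif2s2 rose by 0.63. The kinase gene Eif2ak3 (PERK) fell by 0.54 and Eif2s3x by 0.40, and 10 did not pass (median 0.15). The endoplasmic reticulum chaperone genes, the arm of the stress response run by ATF6 and XBP1, had the most rises, 10 of 17 tested, with 1 lower and a median of 0.42. Dnajc3, an inhibitor of eIF2 kinases, rose by 1.40 ± 0.14, Manf by 0.93 ± 0.08 and Creld2 by 0.93 ± 0.13, while Dnajb9 fell by 0.33. Without mutant tissue replicate 1, and again without replicate 2, the calls of Eif2ak3, Shmt1, Shmt2, Mthfd2, Slc1a4, Sars, Atf2 and Dnajb9 were lost, and that of Aldh18a1 only without replicate 2. Without the filter on dim genes 13 of the 24 preparation calls named in these lists were lost, those of Slc7a3, Ppp1r15a, Cebpb, Cebpg, Jdp2 and Shmt1 among them. Another Shmt1 probe set was the brightest when either array was absent, and its difference was −0.50 without replicate 1 and −0.66 without replicate 2.

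By the brightest probe set of each gene, Asns and Phgdh were called lower in mutant tissue than in WT, and no member tested was called higher. The probe sets of Phgdh disagreed in direction. With the mutant pair set against the WT array, 0 of 7 members rose and 2 fell, where 8.59% of all genes rose and 6.7% fell. Both of those are biosynthesis enzymes.

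Asns fell by 0.72 ± 0.14 in mutant tissue (1.65-fold lower, limma adjusted p = 0.00498). Both mutant arrays were below WT, and the pair differed little between themselves (SD 0.052, n = 2). The call was lost without the intensity trend (adjusted p = 0.129), with probe sets averaged (0.0638) and without the filter on dim genes (0.168). The second Asns probe set differed by −0.61 ± 0.18 (adjusted p = 0.0603 where every probe set was tested on its own). In culture the difference was −0.42, with 1 array a group and no test. Across both preparations, in a model with preparation and genotype, it was −0.59 ± 0.12 and missed the threshold (adjusted p = 0.074).

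Phgdh fell by 0.41 ± 0.09 in mutant tissue by the brightest of its probe sets (adjusted p = 0.00715), but its probe sets disagreed. The others differed by −0.33, −0.17 and 0.17, and of the 4 only the brightest passed when each was tested on its own (adjusted p = 0.0175). Its direction in tissue is therefore uncertain. In culture all 4 were higher in the mutant, by 0.13 to 0.69, on 1 array a group. Of the 7 members Phgdh alone passed the test of the interaction, which asks whether the genotype difference in culture departs from that in tissue (0.56 ± 0.12, adjusted p = 0.0358); 2.21% of all genes passed in that direction and 2.27% in the other.

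**Figure D5:**
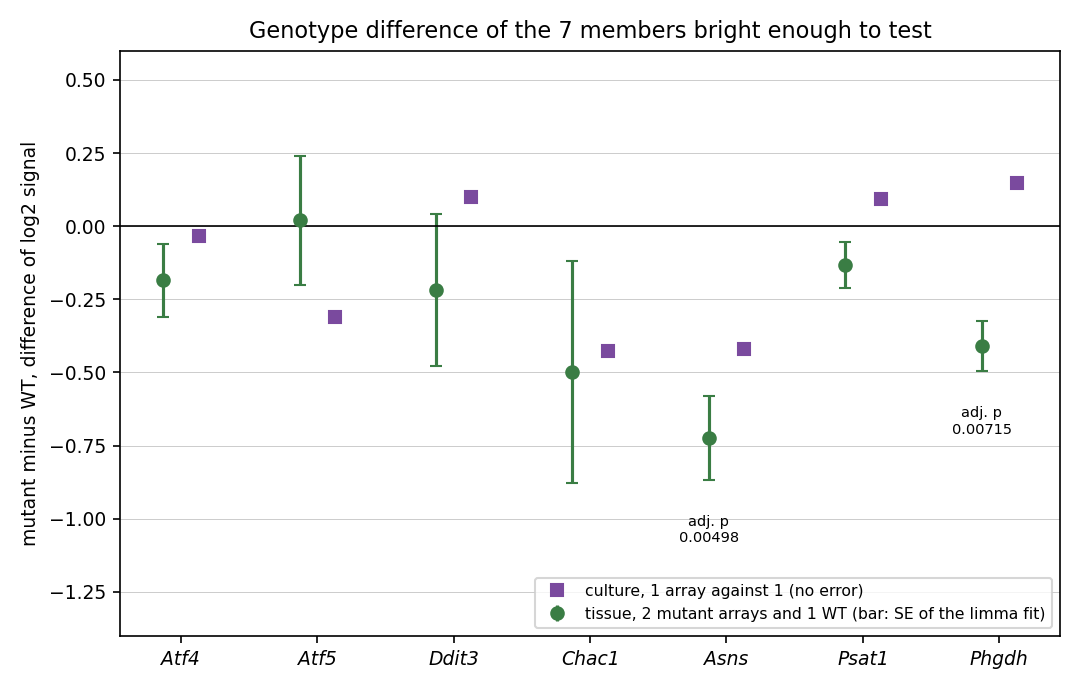
Mutant minus WT (log2 difference) of the 7 members tested, in tissue (green circles, 2 mutant arrays and 1 WT array, bars the SE of the limma fit) and in culture (purple squares, 1 array against 1, no error). Asns lies lowest in tissue at −0.72, and Phgdh lies below 0 in tissue and above 0 in culture.

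The remaining members gave no call in tissue. Chac1 differed by −0.50 ± 0.38 (adjusted p = 0.423), with the mutant pair at 58.0 and 34.3 spread as widely as its distance from WT. Ddit3 differed by −0.22 ± 0.26, Atf4 by −0.19 ± 0.12, Psat1 by −0.13 ± 0.08 and Atf5 by 0.02 ± 0.22, with adjusted p between 0.296 and 0.965. A p above the threshold does not show that these levels were equal. Trib3, not tested, was lower in both mutant tissue arrays than in WT, by 1.06 on average. Across both preparations 0 of the 7 members passed by limma, where 0.814% of all genes rose and 0.253% fell, and Asns was the 1 member with an unadjusted p under 0.05 (0.00127). In culture, no member tested differed by 2-fold, where 1.85% of all genes were at least 2-fold higher and 1.83% lower in the mutant; the largest differences were −0.43 in Chac1 and −0.42 in Asns. Atf3, below the filter, differed by 1.73 there, between signals of 7.11 and 23.5.

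In the 6 wider lists 6 of 78 genes rose in mutant tissue (7.69%) and 5 fell (6.41%), near the 8.59% and 6.7% of all genes tested. All 11 calls were lost without the intensity trend and without the filter on dim genes, and 9 of the 11, all but Ddit4 and Kars, with probe sets averaged. Mthfd2 fell by 0.82 ± 0.21 and Shmt2 by 0.46 ± 0.14, with Gpt2, an alanine aminotransferase, higher by 0.45, among 11 metabolic enzymes. Eif4ebp1 fell by 1.13 ± 0.18 (adjusted p = 0.00136) on the brightest of its probe sets. With probe sets averaged the differences were −0.29 for Eif4ebp1 (adjusted p = 0.736), −0.30 for Mthfd2 (0.396), −0.26 for Shmt2 (0.493), 0.15 for Vldlr (0.724) and 0.11 for Atf2 (0.614). Of the other ATF4-linked genes Ddit4, Vldlr and Atf2 rose, by 0.55, 0.48 and 0.31. The synthetase genes Qars and Kars fell by 0.71 and 0.53, Slc38a1 rose by 0.44 and Canx by 0.33, and 0 of the 14 eIF2-related genes passed. The interaction test was passed by 2 of 78 genes in each direction (2.56%), near the 2.21% and 2.27% of all genes. The genotype difference in culture exceeded that in tissue for Qars (0.81) and Eif4ebp1 (1.09), and lay below it for Vldlr (−1.28) and Slc38a1 (−0.78). Qars was at 1369 in WT tissue, 879 and 804 in mutant tissue, and 769 and 816 in WT and mutant culture. Eif4ebp1 was at 254 in WT tissue, 116 and 127 in mutant tissue, and 2327 and 2217 in WT and mutant culture. All 4 calls were lost without the trend, without the filter and with probe sets averaged.

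Cell type markers moved with genotype in tissue too. Of 12 neuronal markers 9 rose and 1 fell in mutant tissue (median 0.67, sums of 15330 in WT and 18588 and 18917 in mutants), and of 8 astrocyte markers tested 5 rose. Of 5 oligodendrocyte lineage markers tested 4 rose (median 1.49, sums of 1305 in WT and 2416 and 2384 in mutants), among them Olig1 by 1.49 and Pdgfra by 1.62. Among 12 progenitor markers 3 rose and 3 fell in mutant tissue. Nes rose by 3.38, Fabp7 by 0.32 and Sox2 by 0.25, while Cdk1 fell by 0.84, Mki67 by 0.82 and Top2a by 0.76. The dividing-cell gene Top2a had signals of 1932 in WT tissue against 1102 and 1118 in mutant tissue. The genotype difference of Nes in culture lay below that in tissue (interaction −2.71 ± 0.39, limma adjusted p = 0.00568). The MGE list summed to 10897 in WT tissue and 3054 and 3184 in mutants, with Dlx1 and Dlx2 themselves on it. Lhx6 and Gad1 were present in all 5 arrays (374 to 1321 and 518 to 1599). Gad2, Sox6, Maf and Dlx5 also stayed above a signal of 27.8 throughout. Nkx2-1 did not, at 16.2 in WT culture and 12.6 in mutant culture. Lhx8 was at 56.4 in WT culture and 15.46 in mutant culture. The list therefore does not show MGE identity in every array. Whether these marker differences take part in the fall of Asns was not tested.

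The genes most like each member were found by the mean absolute difference of log2 values, each gene centred on its own mean, over the 5 arrays. This was done for the 5 tested members that spanned at least 1 on the log2 scale. For Asns they were Col1a2 (0.13), the nicotinic receptor gene Chrna7 (0.15) and the carbonyl reductase gene Cbr3 (0.15), where the median gene lay 1.21 away. For Atf4 they were Slc13a3 (0.02), Lap3 (0.03) and Tsen15 (0.04), for Atf5 Tmem201 (0.03), Ndnf (0.06) and Bche (0.06), for Chac1 Slco3a1 (0.05), Nkd2 (0.08) and Tuft1 (0.09), and for Phgdh Smim20, Laptm4b and Mrps25 (0.04 each). None of these 15 is on the pathway lists used here, but Col1a2 is on the pericyte and mesenchyme marker list and rose in culture by 2.30. With 5 arrays in 4 groups such likeness is a description only.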

How the data were processed

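Per the values themselves, what the authors deposited is linear intensity for each probe set, scaled so that the mean after trimming 2% at each end was 150.0 in each array; for the software that did so, no name is given in the sources used here. Array medians were 26.2 to 29.8. The 5 arrays were quantile normalized, values under the pooled 20th percentile (5.15) were raised to it and log2 was taken. Probe sets were named by the platform annotation (34741 of 34945 single-symbol probe sets matched RefSeq by Entrez identifier; 64 control probe sets were left out). The brightest probe set stood for each of 18193 genes; 11063 were tested.

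Differences were tested with limma 3.58.1 (R 4.3.3), with a trend of the prior variance on intensity and Benjamini-Hochberg adjustment over all genes tested. A check on simulated data came first. Its noise was drawn with an SD that followed intensity smoothly, so it could not test whether that trend holds in these arrays. Tissue used 3 arrays (1 residual degree of freedom); the preparation and both-preparation effects used 5 (2 residual); the interaction used 4 group means (1 residual). In the tissue and interaction fits a lone array was taken to vary as the mutant tissue pair did, whose difference had an SD of 0.324 over genes. In the preparation and both-preparation fits the spread also includes disagreement of the genotype difference between tissue and culture. The number of arrays limits precision. Members and lists were chosen with earlier results of these data known. Of 178 genes on 18 lists, 170 had a named probe set, 16 by an older symbol. All members are named; in each pathway list, all calls were named where 5 or fewer passed, and otherwise up to 3 rises and 3 falls; the rule does not cover marker lists, whose named genes were chosen after their values were seen.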

Additional observations from a re-analysis of the deposited data

Results flagged for a closer look

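Phgdh was picked out because its genotype difference in culture departed from that in tissue by the interaction test (0.56 ± 0.12 on the log2 scale, limma adjusted p = 0.0358). Its brightest probe set lay below WT in both mutant tissue arrays and above WT in the 1 mutant culture array. The other 3 probe sets gave interactions of 0.52, 0.67 and 0.29, and where every probe set was tested on its own 0 of the 4 passed (adjusted p between 0.0665 and 0.394).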

How the results depend on the processing

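The 6 members called higher in culture were also 6 with the deposited scaling kept, with probe sets averaged or fitted singly, without the intensity trend and without either mutant tissue array. They were 7 with log2(signal + 16) in place of the floor, where Trib3 was tested too (adjusted p = 0.0296). Trib3 passed the filter there only because its culture signals (52.1 and 43.1) were averaged with its tissue signals (30.8, 18.3 and 10.02). That call therefore adds no support for a rise. The count was 3 without the filter on dim genes, where Atf5 (0.0779), Chac1 (0.111) and Phgdh (0.0791) missed. The 2 falls in tissue became 0 without the filter, with probe sets averaged and without the trend; for Asns the adjusted p was then 0.168, 0.0638 and 0.129. The 1 interaction call became 0 under those 3 settings and with every probe set fitted singly. In culture, 1 member, Atf3, differed at least 2-fold without the filter. Over all genes, most genotype calls rested on the trend: without it limma called 2 genes in tissue against 1691, 4 across both preparations against 118 and 0 by interaction against 496. With probe sets averaged the counts were 489, 35 and 4. With dim genes tested too they were 389, 0 and 584, and 1894 against 4297 for preparation, which was 6742 with every probe set fitted singly. Across both preparations 35 and 36 were called without mutant tissue replicate 1 and 2.

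The signs that turned belonged to values that were not called. Across both preparations, without one mutant tissue array, Ddit3 ranged from −0.18 to 0.058 and Psat1 from −0.045 to 0.0059, and Phgdh was 0.035 with probe sets averaged. For culture minus tissue, Ddit3 ranged from −0.062 to 0.17 without one array and was −0.92 (adjusted p = 0.0581) with probe sets averaged. In tissue Ddit3 was 0.02 without replicate 1, and Atf5 was 0.25 without replicate 1 and −0.21 without replicate 2. The Chac1 interaction was −0.0084 with log2(signal + 16). Of the other named calls, 22 of 39 were lost without the trend, 28 of 39 without the filter and 16 of 37 with probe sets averaged. With one mutant tissue array left out, the tissue and interaction effects have no residual degrees of freedom, so no calls were made. No paired analysis was possible because the labels do not link any array of one group to an array of another.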

Other observations

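The 2 probe sets that name Phgdh together with a gene model were left out of every comparison, and both were higher in culture. The one shared with Gm8096 gave tissue signals of 766 (WT), 666 and 703 (mutants) and culture signals of 1328 (WT) and 1383 (mutant). The one shared with Gm6756 gave tissue signals of 451 (WT), 451 and 508 (mutants) and culture signals of 636 (WT) and 916 (mutant).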
